A study of Mus musculus with 12 samples.

Results

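Fibcd1, Pou3f1, Mpped1 and Wfs1 are 4 genes used as markers of the pyramidal neurons of hippocampal field CA1, and they are described here mouse by mouse in RNA-seq of the dorsal hippocampus. The members were taken by symbol from the deposited count table, where they are 4 of 24985 genes. All 4 passed the filter on low counts, which kept 14742 genes. The question was whether the genes moved together, as a larger or smaller CA1 share in the dissected piece would move them, and whether any of them changed beyond what the others did.

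All mice were wild-type C57Bl6/J, entered in the labels as male, and were injected into the right dorsal hippocampus alone at 6 months of age, 6 months before the tissue was taken. The PBS control group received PBS and standard chow, and the PBS acetate group received PBS and chow with 5% Na-acetate. Per the study, the control chow was matched in calories, and mice stayed on their diet for the 6 months after injection. The tau control group received 1 µg of AD tau, insoluble tau purified from the frontal cortex of Alzheimer's disease patients, with standard chow. The tau acetate group received the same tau with the 5% acetate chow. Each group held 3 mice, and every mouse had been trained in contextual fear conditioning and tested for remote recall on the day before tissue was taken, so that all 4 groups share surgery and recall. The dorsal hippocampus of the right hemisphere was cut from a coronal slice and sequenced as poly(A) RNA on separate libraries. The model places patient tau in mice with their own tau gene, and the dissected piece holds all hippocampal fields and the tissue that touches them.

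CA1 is the output field of the trisynaptic circuit of the hippocampus. Its pyramidal neurons receive the Schaffer collaterals of CA3 and project to the subiculum and the entorhinal cortex, and this pathway is required for contextual memory and degenerates early in Alzheimer's disease. Fibcd1 encodes a membrane receptor with a fibrinogen C domain that binds acetylated sugars, Pou3f1 encodes the POU transcription factor also called Oct-6, Mpped1 encodes a protein with a metallophosphoesterase domain, and Wfs1 encodes wolframin, a membrane protein of the endoplasmic reticulum that is mutated in Wolfram syndrome.

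On mouse build GRCm38, Fibcd1 lies on the minus strand at chr2:31813290-31846005, and its exons cover 4751 bases in 7 blocks. Mpped1 lies on the plus strand at chr15:83779467-83858494, with 4295 exonic bases in 11 blocks. Wfs1 lies on the minus strand at chr5:36966104-36989205, with 3787 exonic bases in 8 blocks. Pou3f1 is a single exon of 3849 bases on the plus strand at chr4:124656807-124660655 and overlaps the antisense gene Gm2164. Reads were counted by strand, which keeps Gm2164 apart from Pou3f1 where the library marks strand. The labels name a directional kit and the methods of the study a kit of another number, so that this separation is less sure than that of the other members.

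The 250 bases before the start of Fibcd1 are shown because Fibcd1 was the member with a called slope on the other CA1 genes, described with the covariate, and because its RefSeq start and its GENCODE start coincide. The window is chr2:31846006-31846255 on the minus strand of GRCm38.p6 in the RefSeq table, and capitals mark the match to the GC box GGGCGG.
Fibcd1 promoter: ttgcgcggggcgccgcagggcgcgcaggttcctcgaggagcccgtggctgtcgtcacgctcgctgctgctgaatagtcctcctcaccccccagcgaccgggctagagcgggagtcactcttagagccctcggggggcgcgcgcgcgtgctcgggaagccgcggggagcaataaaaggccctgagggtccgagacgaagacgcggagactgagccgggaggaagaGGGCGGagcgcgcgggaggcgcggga
The GC content of the window was 71.6%, against a median of 52.4% over 32841 windows of the same length. Among 6 short motifs searched on both strands, the GC box GGGCGG had 1 match, and it was present in 32.7% of all windows. The octamer ATGCAAAT, the sequence that POU factors such as Pou3f1 bind, had 0 matches there and was present in 1.6% of windows. The CRE TGACGTCA (1.55% of windows), the E-box CANNTG (66.2%), CCAAT (33.9%) and TATAAA (12.4%) had 0 matches as well. The Wfs1 window held 4 GC boxes, 1 CCAAT and 1 E-box, and the windows at the Mpped1 starts held 7 and 0 GC boxes, and all of these windows lacked the octamer.

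The libraries held 12983233 to 20218340 counts, and the TMM factors were between 0.99 and 1.01. The members had 1023 to 5418 counts per library, so that counting error was at most 3.13% of a value. Xist was at 920 to 1340 CPM (counts scaled to 1000000 per library) in all 12 libraries and the 49 genes of the Y chromosome alone had 0 counts in total, which goes against the sex in the labels, alike in every group. No marker of CA1, CA2, CA3, dentate granule cells or of the other cell types listed was at 0 in any mouse. In whole tissue, fewer cells of a type and less RNA per cell cannot be told apart, so every CPM given here is a level relative to all RNA of the dissected piece.

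Per length of exon, Wfs1 was the highest of the members, with a median over the 12 mice of 52.2 CPM per kb, followed by Mpped1 at 47.8, Fibcd1 at 42.9 and Pou3f1 at 24.4. The ranges over mice were wide, from 1.85-fold for Pou3f1 and 1.96-fold for Fibcd1 to 2.32-fold for Mpped1 and 2.45-fold for Wfs1. The spread within groups was larger than that of most genes. The SD within groups, on the log2 scale, was 0.22 for Fibcd1, 0.20 for Pou3f1, 0.26 for Mpped1 and 0.33 for Wfs1, whereas genes of like level had medians of 0.068 to 0.074. The share of genes of like level with a lower SD was 97.8% for Fibcd1, 97.7% for Pou3f1, 99.2% for Mpped1 and 99.9% for Wfs1.

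Mice injected with PBS and fed acetate had higher levels of the CA1 markers than mice injected with PBS on the control diet. Fibcd1 was at 159, 139 and 130 CPM in PBS control mice 1, 2 and 3, and at 231, 251 and 203 CPM in PBS acetate mice 1, 2 and 3. The acetate mice were all above the control mice, by 1.60-fold (log2 fold change 0.68, SE 0.17, edgeR quasi-likelihood test with Benjamini-Hochberg adjusted p = 0.0596). Mpped1 was at 165, 142 and 121 CPM in the control mice and at 264, 279 and 194 CPM in the acetate mice. The groups did not overlap, and the difference was 1.72-fold (log2 fold change 0.78, SE 0.20, edgeR adjusted p = 0.0717).

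Pou3f1, the least abundant of the members, was at 79.9, 82.0 and 69.3 CPM in the PBS control mice and at 114, 128 and 110 CPM in the PBS acetate mice. The groups again did not overlap, with the smallest spread of the 4 genes, and the difference was 1.52-fold (log2 fold change 0.61, SE 0.15, edgeR adjusted p = 0.0512). Wfs1 was at 172, 151 and 125 CPM in the control mice and at 200, 269 and 196 CPM in the acetate mice. Acetate mouse 2 was well above its group, and although the groups did not overlap, the fold of 1.48 did not pass the test (log2 fold change 0.57, SE 0.26, 95% interval -0.037 to 1.17, edgeR adjusted p = 0.269).

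**Figure D1:**
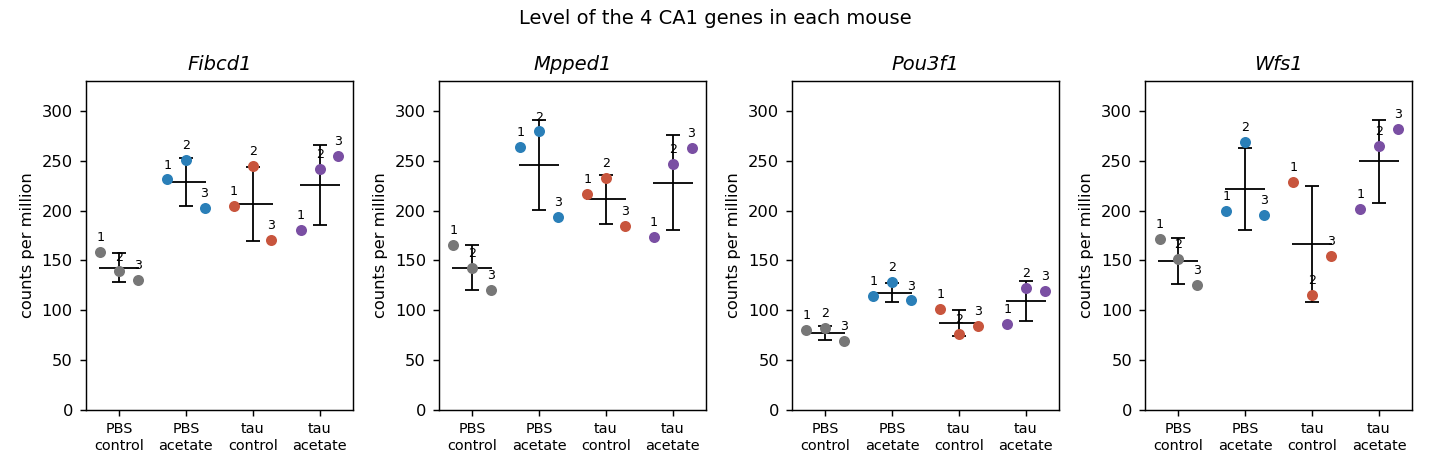
CPM (vertical axis, from 0) of Fibcd1, Mpped1, Pou3f1 and Wfs1 in each mouse of the 4 groups, with the replicate number above each point, the group mean as a horizontal line and the SD as an error bar (n = 3 mice a group). All PBS acetate mice lie above all PBS control mice for each gene, and tau control mouse 2 is the highest of its group for Fibcd1 and Mpped1 and the lowest for Pou3f1 and Wfs1.

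Thus 3 of the 4 members were called higher at an adjusted p below 0.1, where 8.84% of all genes were called, 3.99% in the higher direction, and all 4 had groups that did not overlap, as did 13.1% of genes in that direction. DESeq2 on the 12 mice called the same 3 genes, with adjusted p of 0.00530 for Fibcd1, 0.000293 for Pou3f1, 0.00579 for Mpped1 and 0.221 for Wfs1. At an adjusted p below 0.05 edgeR called 0 of 4. At an unadjusted p below 0.05 it gave the same 3 members, where 20.8% of all genes passed. The calls by edgeR also rested on single mice. When single mice were omitted, Fibcd1 was called in 8 of 12 fits (log2 fold change 0.61 to 0.77, adjusted p 0.0272 to 0.217) and lost without PBS control mouse 2 or 3 or PBS acetate mouse 1 or 2. Pou3f1 was called in 8 of 12 fits (0.54 to 0.65, adjusted p 0.00962 to 0.202) and lost without PBS control mouse 1 or 3 or PBS acetate mouse 1 or 2. Mpped1 was called in 7 of 12 fits (0.67 to 0.93, adjusted p 0.0398 to 0.244) and lost without any of the PBS control mice or without PBS acetate mouse 1 or 2. The fits without a tau-injected mouse left out no mouse of this comparison, and they lost no call. Over all genes, 15 to 1425 were called in these fits, fewest without PBS acetate mouse 2, against 1303 with all 12 mice. The direction of the 3 members was kept in each of these fits.

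Tau on the control diet was compared with PBS on the control diet to see whether the injected side had lost CA1 transcripts. Fibcd1 and Mpped1 were higher rather than lower in the tau-injected mice, by 1.45-fold and 1.48-fold, and no member passed the test. Fibcd1 was at 204, 245 and 170 CPM in tau control mice 1, 2 and 3, all above the PBS control mice (log2 fold change 0.53, SE 0.17, 95% interval 0.16 to 0.91, edgeR adjusted p = 0.375). Mpped1 was at 217, 233 and 184 CPM, also all above the PBS control mice (log2 fold change 0.56, SE 0.20, 95% interval 0.10 to 1.03, edgeR adjusted p = 0.428). Both genes thus had groups that did not overlap, as did 6.61% of all genes in the higher direction and 13.5% in either.

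Pou3f1 was at 101, 75.9 and 83.9 CPM in the tau control mice, which overlapped with PBS control (log2 fold change 0.18, SE 0.15, 95% interval -0.16 to 0.51, edgeR adjusted p = 0.775). Wfs1 was at 229, 115 and 155 CPM, and tau control mouse 1 was the highest and mouse 2 the lowest of the 6 mice on control chow (log2 fold change 0.15, SE 0.27, 95% interval -0.46 to 0.76, edgeR adjusted p = 0.913). Of the members, 0 of 4 were called by edgeR, where 0.0136% of all genes were, and 0 of 4 by DESeq2. At an unadjusted p below 0.05 edgeR gave 2 of 4, Fibcd1 and Mpped1, where 9.65% of all genes passed. The 95% intervals, which are not adjusted for the number of genes, held no loss of Fibcd1 or Mpped1, whereas those of Pou3f1 and Wfs1 covered losses and gains. These intervals are of levels in the whole piece. At a given level of other CA1 genes, described with the covariate, the values were 0.12 for Fibcd1 (SE 0.11) and 0.12 for Mpped1 (SE 0.17).

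Tau on the acetate diet was compared with PBS on the acetate diet. Fibcd1 was at 180, 242 and 255 CPM in tau acetate mice 1, 2 and 3, around the values of the PBS acetate mice (log2 fold change -0.018, SE 0.16, edgeR adjusted p = 0.987). Mpped1 was at 174, 246 and 263 CPM (log2 fold change -0.11, SE 0.20, edgeR adjusted p = 0.903). The groups overlapped for both genes, as they did for all but 16.2% of genes, with mouse 1 the lowest of the tau acetate group. Pou3f1 was at 86.1, 123 and 119 CPM (log2 fold change -0.11, SE 0.14, edgeR adjusted p = 0.865), and Wfs1 was at 202, 265 and 282 CPM (log2 fold change 0.17, SE 0.26, edgeR adjusted p = 0.885). Mouse 1 was again the lowest for both genes, and 0 of 4 members were called by edgeR (0.136% of all genes), 0 at an unadjusted p below 0.05 (10.3%) and 0 by DESeq2.

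Acetate was compared with the control diet in tau-injected mice, the comparison in which the diet meets the seeded tau. The mice with and without acetate overlapped for each member, while they did not for 14.4% of all genes. The log2 fold change was 0.13 for Fibcd1 (SE 0.17, 95% interval -0.25 to 0.50), 0.11 for Mpped1 (SE 0.20, -0.35 to 0.56) and 0.32 for Pou3f1 (SE 0.15, -0.0010 to 0.65). For Wfs1 it was 0.58 (SE 0.26, 95% interval -0.019 to 1.19), with values of 115 to 229 CPM without acetate and 202 to 282 CPM with it. Tau control mouse 2 moved these values, and without it the log2 fold change was 0.37 for Wfs1 and 0.27 for Fibcd1, and that of Wfs1 was 0.37 to 0.89 over all omissions of single mice. The edgeR adjusted p values were 0.845, 0.910, 0.461 and 0.473, so that 0 of 4 members were called (0.0611% of all genes), 0 at an unadjusted p below 0.05 (10.9%) and 0 by DESeq2.

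The interaction asked whether acetate acted differently with and without tau. The difference of the acetate effects, tau minus PBS, was -0.55 for Fibcd1 (SE 0.23, edgeR adjusted p = 0.365), -0.68 for Mpped1 (SE 0.29, adjusted p = 0.366), -0.28 for Pou3f1 (SE 0.21, adjusted p = 0.638) and 0.017 for Wfs1 (SE 0.37, adjusted p = 0.992). Hence 0 of 4 members were called by edgeR (1.56% of all genes) and 0 by DESeq2, and the call of 3 members in PBS-injected mice was not shown to differ from the tau-injected mice. At an unadjusted p below 0.05 there were 2 of 4, Fibcd1 and Mpped1, and 13% of all genes. The comparisons share groups, so that the low PBS control mice enter both comparisons in which members were higher.

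The order of the group means was shared by 3 members. Fibcd1 had means of 143 ± 14.5 CPM in PBS control, 207 ± 37.4 in tau control, 226 ± 39.9 in tau acetate and 228 ± 24.0 in PBS acetate (SD, n = 3). Mpped1 had the same order, with 143 ± 22.4, 211 ± 24.7, 228 ± 47.6 and 246 ± 45.6 CPM, and so did Pou3f1, with 77.1 ± 6.83, 87.1 ± 13.1, 109 ± 20.1 and 117 ± 9.64 CPM. No step between neighbours in this order passed the edgeR tests above at the adjusted threshold, although Fibcd1 and Mpped1 did not overlap between PBS control and tau control, with unadjusted intervals above 0. Wfs1 had another order, with 149 ± 23.3 CPM in PBS control, 166 ± 57.9 in tau control, 221 ± 41.2 in PBS acetate and 249 ± 42.1 in tau acetate, and the step between tau control and PBS acetate is no comparison of the design and was not tested.

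Ratios between members take away what all 4 share. The ratio of Mpped1 to Fibcd1 was nearly constant, with log2 ratios of -0.11 to 0.19 in the 12 mice, a range of 1.23-fold, although each of the genes varied by about 2-fold or more. The ratio of Wfs1 to Fibcd1 was between -0.21 and 0.16 in 11 mice and at -1.09 in tau control mouse 2. The ratio of Pou3f1 to Fibcd1 was between -1.10 and -0.76 in the same 11 mice and at -1.69 in tau control mouse 2. The range of Wfs1 to Fibcd1 was 2.39-fold with that mouse and 1.30-fold without it, and the SD within groups was 0.34 with it and 0.13 without it.

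**Figure D2:**
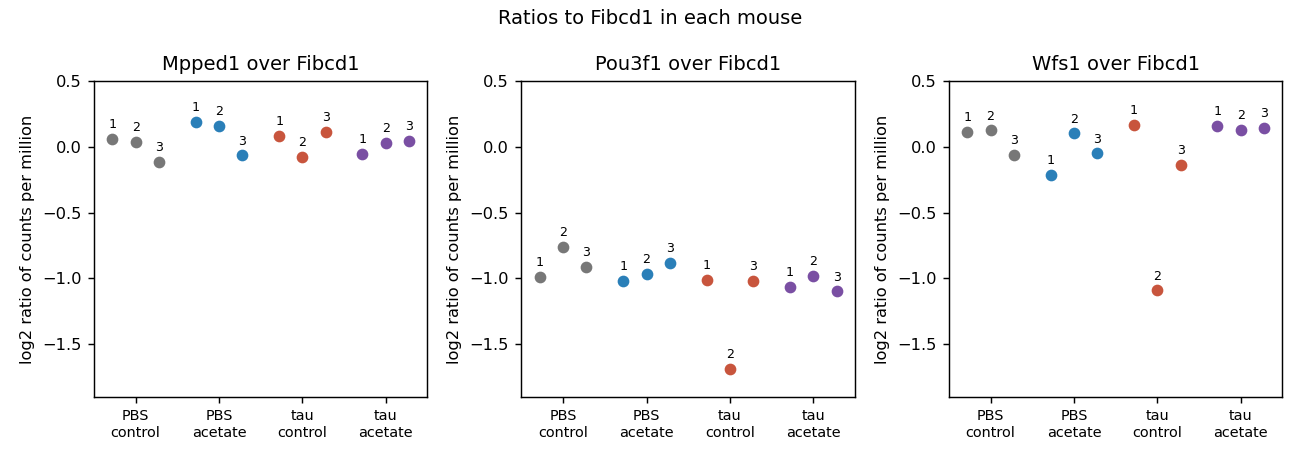
The log2 ratio of the CPM of Mpped1, Pou3f1 and Wfs1 to that of Fibcd1 (vertical axis) in each mouse of the 4 groups, with replicate numbers above the points. Mpped1 over Fibcd1 stays between -0.11 and 0.19 in all mice, whereas tau control mouse 2 is at -1.69 for Pou3f1 and at -1.09 for Wfs1, below the other 11 mice.

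Tau control mouse 2 therefore had 2 members at the top of its group and 2 at the bottom. Its Fibcd1 (245 CPM) and Mpped1 (233 CPM) were near the acetate-fed mice, while its Wfs1 (115 CPM) was the lowest of all 12 mice and its Pou3f1 (75.9 CPM) the second lowest. Its library held 15153232 counts, within the range of the others, and its TMM factor was 0.996. The mean levels of other CA1 genes and of CA2 genes stood apart in the same library. The mean centred log2 level of the 8 other CA1 genes was at 0.47, the highest of all mice, and that of the 6 CA2 genes was at -0.66, the lowest. The genes of the CA1 list were not alike there, with centred levels of 1.55 for Ccn3 and 0.78 for Crym. Gm11549, Man1a and Gpr161 were at 0.59, 0.54 and 0.42, while Spink8 was at -0.17 and Neurod6 at -0.093. Ccn3, a secreted matricellular protein, was at 162 CPM there against 24.0 to 132 CPM in the other mice, and Crym, a binding protein of thyroid hormone, was at 240 CPM against 106 to 159 CPM. The part of these markers in the split between the members was not tested.

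Among mice of the same group, the members fell into pairs. After the group means were taken away, Fibcd1 and Mpped1 correlated with r = 0.92 and rho = 0.94 over the 12 mice (exact permutation of mice within groups, two-sided p = 0.000772 for r and for rho, the smallest these permutations can give, 0.00463 adjusted over the 6 pairs). Without the 2 mice farthest from the median of Fibcd1 r was 0.89 (exact adjusted p = 0.0417). Pou3f1 and Wfs1 correlated with r = 0.89 and rho = 0.90 (exact p = 0.00540 and 0.00463, adjusted p = 0.0162 and 0.0139), and without the 2 mice farthest from the median of Pou3f1 r was 0.89 (exact adjusted p = 0.146).

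Across these pairs the relations were weaker and were decided by tau control mouse 2. Fibcd1 and Wfs1 had r = 0.27 and rho = 0.33 (exact p = 0.551 and 0.416, adjusted p = 0.551 and 0.416), and without tau control mouse 2 r was 0.90 over 11 mice (exact adjusted p = 0.00694). Fibcd1 and Pou3f1 had r = 0.49 and rho = 0.38 (exact p = 0.265 and 0.373, adjusted p = 0.318 and 0.416), and 0.92 without that mouse (exact adjusted p = 0.0111). Mpped1 and Pou3f1 had r = 0.66 and rho = 0.55 (exact p = 0.0633 and 0.132, adjusted p = 0.127 and 0.198), and Mpped1 and Wfs1 had r = 0.48 and rho = 0.55 (exact p = 0.126 and 0.0903, adjusted p = 0.189 and 0.181). Without tau control mouse 2 these became 0.86 and 0.84 (exact adjusted p = 0.0111 for each). Without the 2 mice farthest from the median of the gene named first, r was 0.0059 for Fibcd1 and Pou3f1, 0.0041 for Fibcd1 and Wfs1, 0.28 for Mpped1 and Pou3f1 and 0.25 for Mpped1 and Wfs1. In 11 mice all 4 genes thus moved together, and in the remaining mouse they did not. That mouse was set aside after its values were seen.

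**Figure D3:**
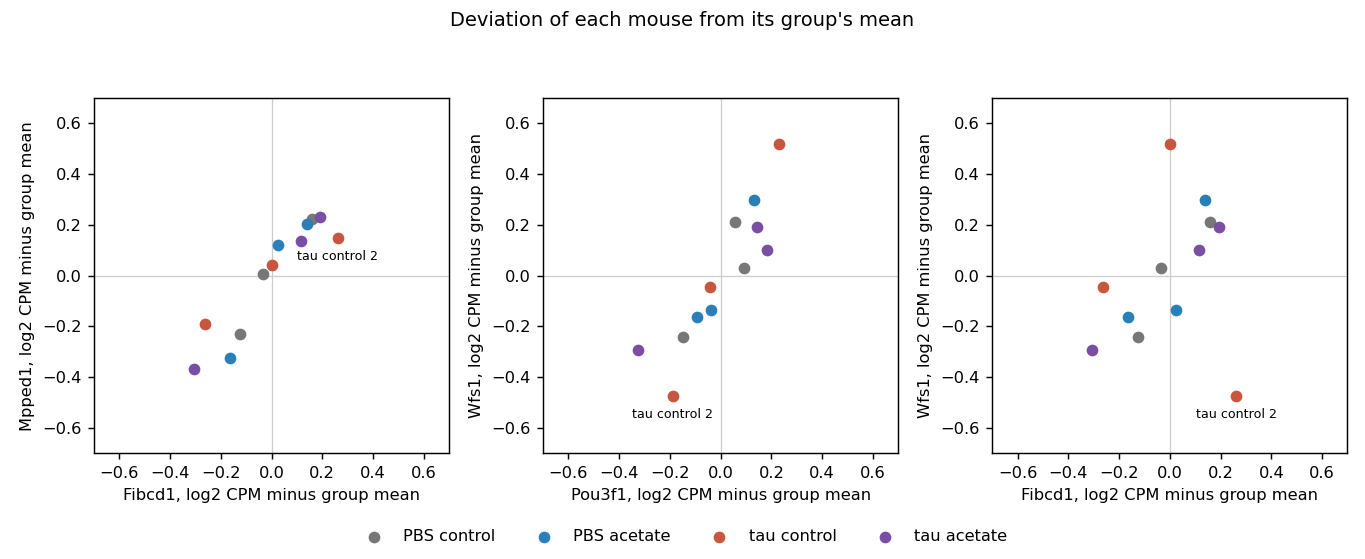
Deviation of each mouse from its group's mean of log2 CPM (both axes) for Fibcd1 and Mpped1, Pou3f1 and Wfs1, and Fibcd1 and Wfs1, with points coloured by group. The points of the 2 panels on the left lie along a rising line (r = 0.92 and 0.89), and in the panel on the right tau control mouse 2 lies apart from the others (r = 0.27).

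The shift in the PBS-injected mice was shared in part by other CA1 genes, listed apart from the members. Among 8 such genes Neurod6, a neuronal bHLH factor that CA3 also expresses, was called lower with acetate (log2 fold change -0.37, SE 0.074, edgeR adjusted p = 0.0195). The median log2 fold change of the 8 genes was 0.53, against 0.64 for the members and 0.0042 over all genes. The list was split, with 6 changes positive and 2 negative, from -0.62 to 1.55. Gm11549 was at 4.66, 5.64 and 3.05 CPM in PBS control mice and at 2.58, 1.96 and 4.22 CPM in PBS acetate mice. Spink8 overlapped, at 22.4, 19.3 and 24.9 CPM against 22.9, 23.8 and 24.9 CPM. The largest difference was that of Ccn3 (1.55, SE 0.58, adjusted p = 0.178), which did not pass the test. DESeq2 also called Neurod6 lower, and it called Man1a, Gpr161 and Ccn3 higher.

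CA3 genes moved the other way. Of 7 genes, 5 were called lower with acetate in PBS-injected mice, where 4.85% of all genes were, and the median of the list was -0.82. Iyd, an iodotyrosine deiodinase, fell by 1.27 on the log2 scale (SE 0.30, edgeR adjusted p = 0.0449). Nectin3, a synaptic adhesion protein, fell by 1.01 (SE 0.23, adjusted p = 0.0497), Cpne4, a copine, by 0.82 (SE 0.23, adjusted p = 0.0835), Spock1, a proteoglycan, by 0.72 (SE 0.17, adjusted p = 0.0532) and Grik4, a kainate receptor subunit, by 0.54 (SE 0.15, adjusted p = 0.0736). The summed level of the list was 1241 to 1437 CPM in PBS control mice and 921 to 1132 CPM in PBS acetate mice, so that a higher level of CA1 genes went with a lower level of CA3 genes. The 6 CA2 genes had a median of -0.60, with 0 called by edgeR, 3 at an unadjusted p below 0.05 and 1, Amigo2, by DESeq2. Whether the dissected pieces held different shares of these fields was not tested.

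**Figure D4:**
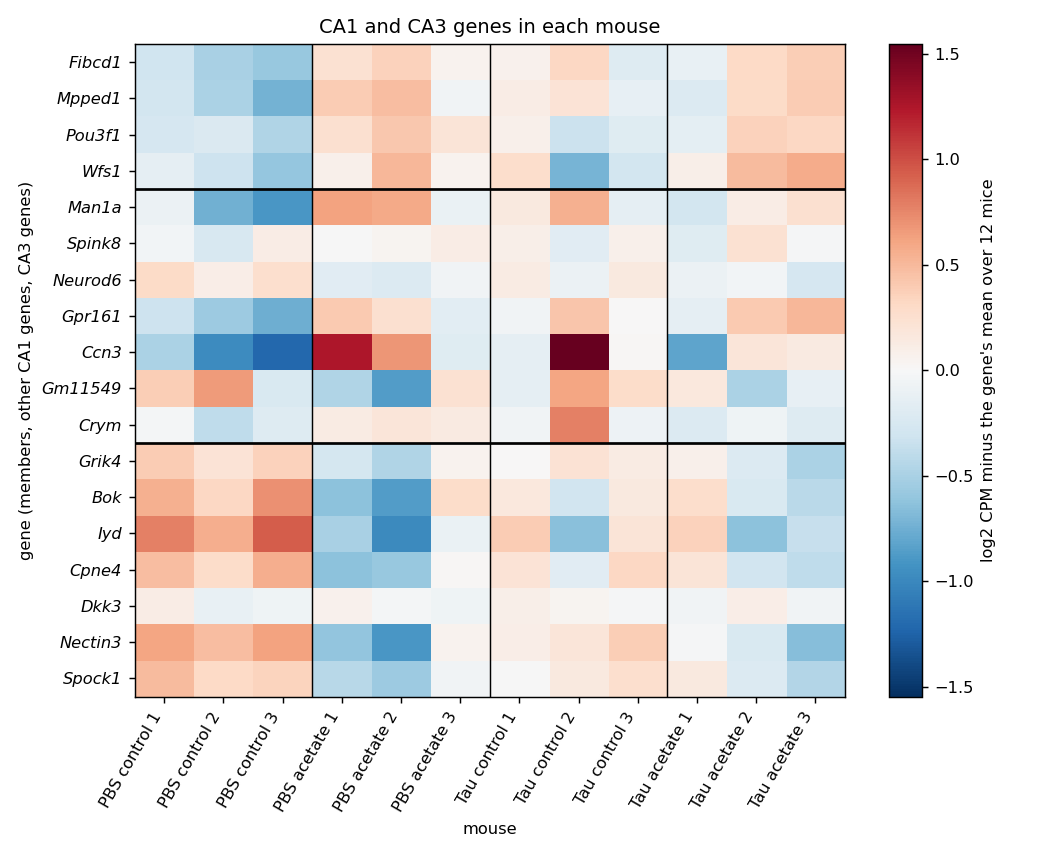
Log2 CPM of each gene minus its mean over the 12 mice (colour, red above and blue below the mean) for the 4 members, 7 of the 8 other CA1 genes and the 7 CA3 genes (rows, from top to bottom) in each mouse (columns by group). The members are below their means in the 3 PBS control mice, in which most CA3 genes are above theirs, and tau control mouse 2 has low Wfs1 beside high Ccn3 and Crym.

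Other tissue also differed between the PBS groups. Subiculum genes had a median of 1.48, with Fn1 (fibronectin, log2 fold change 0.40, SE 0.11, edgeR adjusted p = 0.0557) and Nts (neurotensin) called higher, Nts from about 0.1 CPM to 0.8 to 6.2 CPM. Myelin genes had a median of -0.51, with Mobp and Ermn called lower of 8, and choroid plexus genes one of -1.08, with Folr1 and Otx2 called lower of 6. Of the neocortex genes, Hs3st4 was called lower of 7, and the median of that list was -0.087. Hs3st4 was at 180 to 233 CPM in PBS control and 99.8 to 155 CPM in PBS acetate mice. The CA3 gene Cpne4 was at like levels, 195 to 237 and 103 to 161 CPM. Whether the call of Hs3st4 reflects neocortex or CA3 was not tested. Slc17a7, the vesicular glutamate transporter of all these pyramidal fields, was called lower of 4 excitatory neuron genes, by 0.22 on the log2 scale (SE 0.07, edgeR adjusted p = 0.0749), with overlapping groups. Astrocyte genes had Slc1a3 called higher and Aqp4 lower of 5. Thalamus genes had a median of -0.81 and reached 291 CPM in PBS control mouse 2, against at most 133 CPM in the acetate-fed and tau-injected mice. The part of these markers in the values of the members was not tested.

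Lists with no edgeR call in this comparison were thalamus (6 genes, 1 at an unadjusted p below 0.05 and 1, Prkcd, by DESeq2), dentate granule cells (6 genes, 1 and 0), inhibitory neurons (6 genes, 2 and 1, Sst), microglia (5 genes, 0 and 0) and endothelium (5 genes, 1 and 0). The 4 paralogues Pou3f2, Pou3f3, Pou3f4 and Mpped2 had a median of 0.035, with 0 called by edgeR, 1 at an unadjusted p below 0.05 and 1, Mpped2, by DESeq2. The paralogue of Mpped1 was thus at a log2 fold change of -0.40, opposite in sign to Mpped1 itself. Pou3f3, the paralogue nearest in abundance to Pou3f1, was at 82.0 to 95.8 CPM in PBS control and 87.1 to 101 CPM in PBS acetate, with overlapping groups.

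Wolframin takes part in the unfolded protein response, and 14 genes of that response were listed, of which 13 passed the filter. Of these, 4 were called lower with acetate in PBS-injected mice and 0 higher, where 4.85% and 3.99% of all genes were. The median was -0.14, with 10 changes negative and 3 positive, the highest at 0.17. The genes called were chaperones and a regulator, Atf6, with Pdia4 down by 0.45 (SE 0.08, edgeR adjusted p = 0.0103), Hspa5 by 0.44 (SE 0.12, adjusted p = 0.0623), Atf6 by 0.25 (SE 0.05, adjusted p = 0.0207) and Hsp90b1 by 0.24 (SE 0.05, adjusted p = 0.0251) on the log2 scale. Wfs1 itself was higher in each of these acetate mice than in each control mouse without passing the test. In the interaction Atf6 was the gene of this list that was called, with a difference of 0.36 (SE 0.07, adjusted p = 0.0466).

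In the other comparisons edgeR called 0 genes of these lists apart from the interaction, where Aqp4 (0.35, SE 0.09, adjusted p = 0.0755) and Folr1 (2.92, SE 0.71, adjusted p = 0.0755) were called beside Atf6. With tau on the control diet the other CA1 genes had a median log2 fold change of 0.48, with 5 of 8 at an unadjusted p below 0.05 and 0 by DESeq2, beside 0.53 and 0.56 for Fibcd1 and Mpped1. The CA3 genes were at a median of -0.32 there, with 1 of 7 at an unadjusted p below 0.05 and 0 by DESeq2. With tau on the acetate diet the medians were -0.17 for the other CA1 genes and 0.19 for the CA3 genes, and with acetate in tau-injected mice they were -0.18 and -0.27. Myelin genes had a median of -0.62 with tau on the control diet, with 8 of 8 at an unadjusted p below 0.05 and 1, Mbp, by DESeq2. Their summed level was 7003 to 9031 CPM in PBS control mice and 4644 to 5625 CPM in tau control mice, so that the PBS control group was high in myelin genes where it was low in the members. The acetate groups did not share this pattern. The mean centred log2 level of the members was 0.25 in PBS acetate and 0.23 in tau acetate, and that of myelin genes was -0.22 and 0.20. The part of these genes in the values of the members was not tested.

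To ask for changes beyond the share of CA1, the model was fitted with the level of the 8 other CA1 genes in each mouse as a covariate. Acetate in PBS-injected mice then gave 0.29 for Fibcd1 (SE 0.11, edgeR adjusted p = 0.317), 0.36 for Mpped1 (SE 0.17, adjusted p = 0.458), 0.53 for Pou3f1 (SE 0.22, adjusted p = 0.386) and 0.59 for Wfs1 (SE 0.39, adjusted p = 0.592). The log2 fold changes of Fibcd1 and Mpped1 were thus less than 0.5 times those without the covariate, and those of Pou3f1 and Wfs1 were close to them. This contrast between the pairs rested on tau control mouse 2, since without it the values with the covariate were 0.28 for Fibcd1 (SE 0.13), 0.19 for Mpped1 (SE 0.16), 0.29 for Pou3f1 (SE 0.17) and 0.16 for Wfs1 (SE 0.30). Over all omissions of single mice Wfs1 was at 0.16 to 0.90. By edgeR 0 of 4 members were called in this fit, as were 0% of all genes, although 2 of 4, Fibcd1 and Pou3f1, had an unadjusted p below 0.05, as did 12.2% of all genes. With single mice left out, Pou3f1 was past the threshold in 1 of 12 fits, that without tau acetate mouse 1 (0.68, edgeR adjusted p = 0.0867). That mouse is in neither of the compared groups, and it enters through the covariate. The slope of Pou3f1 on the covariate was -0.15 in that fit and 0.19 with all 12 mice. DESeq2 was not run with the covariate. The covariate and the groups overlap, so that it also takes away part of any change that CA1 genes share. It is an unweighted mean of genes that differed in spread, with log2 SDs within groups from 0.11 for Neurod6 to 0.68 for Ccn3. How well it measures the share of CA1 was not tested.

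In tau-injected mice the log2 fold change with acetate was 0.31 for Fibcd1 (SE 0.09, unadjusted p = 0.00254, edgeR adjusted p = 0.260) and 0.30 for Mpped1 (SE 0.13, adjusted p = 0.498), beside 0.13 and 0.11 without it, while Pou3f1 was at 0.36 (SE 0.17, adjusted p = 0.523) and Wfs1 at 0.58 (SE 0.30, adjusted p = 0.563). Without tau control mouse 2 the values were 0.31 with and 0.27 without the covariate for Fibcd1, and 0.24 and 0.18 for Mpped1. None of the 4 members was called, where 0.0271% of all genes were, and 1 of 4, Fibcd1, had an unadjusted p below 0.05, as did 10.3% of all genes. At a given level of other CA1 genes, the acetate effects of Fibcd1 and Mpped1 were near each other in PBS-injected and tau-injected mice, with interactions of 0.018 (SE 0.15, adjusted p = 0.995) and -0.058 (SE 0.24, adjusted p = 0.991), where 0.00678% of all genes were called. For tau on the control diet the covariate left 0.12 for Fibcd1 (SE 0.11, adjusted p = 0.998) and 0.12 for Mpped1 (SE 0.17, adjusted p = 0.998), in place of 0.53 and 0.56. For tau on the acetate diet it gave 0.13 for Fibcd1 (SE 0.08, adjusted p = 0.647) and 0.060 for Mpped1 (SE 0.13, adjusted p = 0.941), where 0.0543% of all genes were called.

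**Figure D5:**
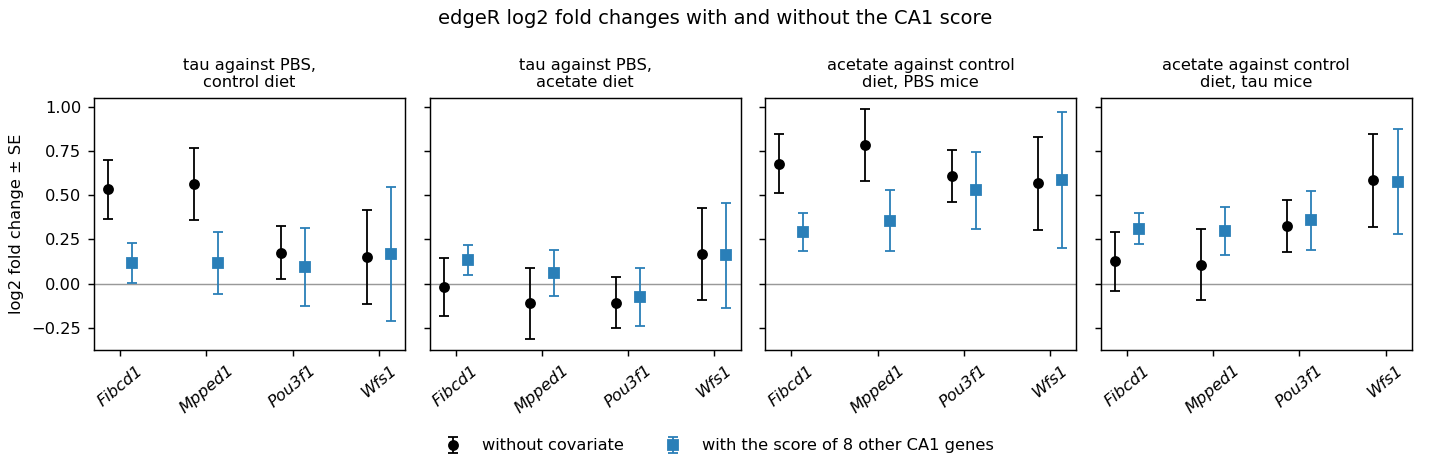
Log2 fold changes with their SE (vertical axis) of the 4 members in each of the 4 comparisons, from the edgeR model on 12 mice, without a covariate (black circles) and with the mean level of 8 other CA1 genes as covariate (blue squares). With acetate in PBS-injected mice Fibcd1 is at 0.68 without and 0.29 with the covariate and Mpped1 at 0.78 and 0.36, and Wfs1 at 0.57 and 0.59, which becomes 0.16 with the covariate when tau control mouse 2 is left out.

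The slopes on that covariate show which members followed the other CA1 genes within groups. For a change of 1 log2 unit in the other CA1 genes, Fibcd1 changed by 0.90 (SE 0.17, edgeR adjusted p = 0.0190) and Mpped1 by 1.00 (SE 0.27, adjusted p = 0.180). Pou3f1 changed by 0.19 (SE 0.35, adjusted p = 0.931) and Wfs1 by -0.043 (SE 0.63, adjusted p = 0.994). Fibcd1 was therefore the member with a called slope, as were 1.61% of all genes. The slopes of Pou3f1 and Wfs1 and the call of Fibcd1 rested on tau control mouse 2, in which the mean of the other CA1 genes was highest. Without it the slopes were 0.93 for Fibcd1 (SE 0.23, adjusted p = 0.217), 1.38 for Mpped1 (SE 0.29, adjusted p = 0.138), 0.76 for Pou3f1 (SE 0.30, adjusted p = 0.621) and 0.99 for Wfs1 (SE 0.54, adjusted p = 0.831), with 0.328% of genes called. When single mice were omitted the slope of Fibcd1 was 0.76 to 1.03 and was called in 11 of 12 fits, and that of Mpped1 was 0.82 to 1.38 and was called in 2 of 12. Such a relation was not particular to the CA1 list. Within groups Fibcd1 had r = 0.85 with the other CA1 genes, 0.76 with inhibitory neuron genes and -0.78 with CA3 genes. For Mpped1 these were 0.79, 0.77 and -0.84, as descriptions with no test.

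Some ratios between members also differed between groups, as a description with no test. The ratios of all pairs of members were looked at in each comparison of 2 groups, and those named are the ones without overlap. The share of ratios without overlap among other pairs of genes was not computed. With tau on the control diet the log2 ratio of Pou3f1 to Fibcd1 was lower in each of the mice than in each PBS control mouse, with means of -1.24 and -0.89, and the difference was -0.35 with tau control mouse 2 and -0.13 without it. The separation was narrow, with tau control mouse 1 at -1.01 and PBS control mouse 1 at -0.99. The ratio of Pou3f1 to Mpped1 was lower as well (-0.40, and -0.23 without that mouse). With tau on the acetate diet the ratio of Wfs1 to each of the other members was higher in each tau mouse, by 0.20 for Fibcd1, 0.29 for Mpped1 and 0.29 for Pou3f1. These ratios share the values of Wfs1 and are not separate results. The ratio of Wfs1 to Mpped1 was lower with acetate in PBS-injected mice (-0.21) and higher with acetate in tau-injected mice (0.53, and 0.22 without tau control mouse 2), with groups that did not overlap in either. In the tau-injected mice the separation was again narrow, with tau acetate mouse 3 at 0.097 and tau control mouse 1 at 0.079. These differences lie between 0.13 and 0.53 in size on the log2 scale, and the SD within groups of these ratios was 0.18 to 0.34 with tau control mouse 2 and 0.079 to 0.15 without it.

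Among 10011 genes with a mean of at least 10 CPM, those whose levels over the 12 mice were most like the mean of the 4 members were B3gat1 (r = 0.964), Plk2 (0.964), Adcy2 (0.961), Itpka (0.955), Igfbp4 (0.953), Iqgap2 (0.951), Ddn (0.950) and Thbs4 (0.948). B3gat1 makes the HNK-1 carbohydrate, Plk2 is an activity-regulated kinase of the synapse, Itpka is an inositol trisphosphate kinase of dendritic spines and Ddn is the dendritic protein dendrin. All 8 were called higher with acetate in PBS-injected mice, from 0.23 for Adcy2 to 0.58 for Itpka on the log2 scale, and as they were picked for following genes that differ there, this is a description. The genes most opposed were Dlat (-0.951), a subunit of the pyruvate dehydrogenase complex, the transcription activator Camta1 (-0.937), Mylk (-0.931), the myosin light chain kinase, and the RNA-binding protein Celf4 (-0.928).

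The nearest genes of the single members differed. Fibcd1 was nearest to Mtus2 (r = 0.963), Jph4 (0.962) and Fn1 (0.957), and Mpped1 to Sstr4 (0.962), Jph4 (0.959) and Fam189a1 (0.958), so that Jph4, a junctophilin of neurons, stood near both. Pou3f1 was nearest to Arhgap12 (0.966), Plk2 (0.959) and Usp3 (0.954). Wfs1 was nearest to Git1 (0.978), Zfpm1 (0.955) and the potassium channel subunit Kcnab1 (0.949). Git1, a scaffold of the synapse, was at a log2 fold change of 0.23 between the PBS groups (edgeR adjusted p = 0.188) and, like Wfs1, did not pass the test. These correlations over 12 mice include the differences between groups and carry no p-value.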

How the data were processed

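Libraries of poly(A) RNA were made from 12 mice, 1 per mouse, from the dissected dorsal hippocampus. Per the labels and the methods of the study, the authors aligned reads with STAR 2.5.2a to GRCm38 and counted them per gene by strand with HTSeq 0.9.1, and the deposited table holds raw counts, with no normalisation. The counts were tested in R 4.3.3 with edgeR 4.0.16 (robust quasi-likelihood F test, TMM, filter of 10 counts and 15 in total, 1 mean per group, all 12 mice, 8 residual degrees of freedom). Calls were made at a Benjamini-Hochberg adjusted p below 0.1 over 14742 genes. DESeq2 1.42.0, used by the authors, was an alternative. CPM were scaled to 1000000 counts per library. The CA1 covariate was the mean centred log2 CPM (prior count 2) of 8 other CA1 genes. Exon lengths came from GENCODE M21. Values of 1 of these genes are not reported here. The scripts were tested on simulated counts. Members and the 17 lists were chosen with earlier results of these data known. Named genes are the members, the genes of each list that were called or that had the largest change, and the genes nearest in correlation; other CA1, CA3 and paralogue genes named beside tau control mouse 2 or beside a member were chosen after their values were seen. Each sample is a separately labelled mouse. Library totals were 12983233 to 20218340 counts. Libraries of a group differed by more than sampling noise. Replicate numbers did not pair mice of different groups (correlations of -0.10 to 0.14 across genes, above 0.1 in 2 of 18).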

Additional observations from a re-analysis of the deposited data

How the results depend on the processing

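With 3 mice per group, an exact test of a single value could not go below p = 0.1, and the calls rest on a spread estimated across genes. Depth was not the limit for the members, since counting error was at most 3.13% of a value. The covariate and the groups were not independent. The values without tau control mouse 2 and the omission of single mice from the slopes were added after the data were seen. DESeq2 size factors, no filter, DESeq2's Wald test and edgeR on the compared groups alone left each call of a member in the acetate comparison of PBS-injected mice as it was.

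At an adjusted p below 0.05, 0 members were called in PBS-injected mice with acetate (Fibcd1 0.68, Pou3f1 0.61 and Mpped1 0.78, log2). With the CA1 covariate 0 were called (0.29, 0.53 and 0.36), the tau difference on the acetate diet turned to 0.13 for Fibcd1 and 0.060 for Mpped1, and the interaction to 0.018 for Fibcd1 and -0.0078 for Wfs1. With other CA1 minus CA3 genes as covariate 0 were called (0.068, 0.34 and 0.035), the tau difference on the acetate diet was 0.15 for Fibcd1 and 0.10 for Mpped1, and the interaction was 0.030 for Fibcd1, 0.022 for Mpped1 and 0.20 for Wfs1. The cause was not tested.

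With the replicate block the acetate effect in PBS-injected mice was 0.67 for Fibcd1, 0.61 for Pou3f1, 0.77 for Mpped1 and 0.58 for Wfs1, with 3 members called, and it changed no call of a member. The numbers were shared and did not pair mice. With the block and the CA1 covariate the interaction of Fibcd1 was -0.017. The correlation of Pou3f1 and Wfs1 was 0.89 but missed the threshold without the 2 mice farthest from the median, where fewer permutations exist.

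Leaving out single mice, 0 to 3 members were called with acetate in PBS-injected mice (Fibcd1 0.61 to 0.77, Pou3f1 0.54 to 0.65, Mpped1 0.67 to 0.93). Tau on the control diet gave -0.15 to 0.36 for Wfs1, and tau on the acetate diet -0.12 to 0.12 for Fibcd1, -0.20 to 0.042 for Pou3f1 and -0.25 to 0.052 for Mpped1. Acetate in tau-injected mice gave -0.0042 to 0.28 for Mpped1, and the interaction -0.19 to 0.32 for Wfs1. With the covariate, tau on the control diet gave -0.023 to 0.23 for Fibcd1, -0.16 to 0.24 for Pou3f1, -0.078 to 0.20 for Mpped1 and -0.32 to 0.47 for Wfs1, and tau on the acetate diet -0.18 to 0.030 for Pou3f1 and -0.060 to 0.17 for Mpped1. Acetate in PBS-injected mice then gave 0.29 to 0.68 for Pou3f1. The interaction then was -0.11 to 0.18 for Fibcd1, -0.30 to 0.12 for Pou3f1, -0.23 to 0.17 for Mpped1 and -0.37 to 0.55 for Wfs1. Without tau control mouse 2 the correlations became 0.92 for Fibcd1 and Pou3f1, 0.90 for Fibcd1 and Wfs1, 0.86 for Mpped1 and Pou3f1 and 0.84 for Mpped1 and Wfs1.

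The counts of all genes called were 2 for tau on the control diet, 20 for tau on the acetate diet, 1303 for acetate in PBS-injected mice, 9 for acetate in tau-injected mice and 230 for the interaction. In the same order they were 100, 130, 1387, 167 and 472 by DESeq2, 3, 37, 1113, 56 and 266 with no filter, 0, 0, 541, 3 and 43 at an adjusted p below 0.05, 9, 25, 1224, 10 and 349 with the replicate block, 0, 8, 0, 4 and 1 with the CA1 covariate and 0, 7, 0, 70 and 4 with CA1 minus CA3 genes. With the compared groups alone the first 4 were 35, 16, 1537 and 2. Leaving out single mice gave 0 to 16, 0 to 93, 15 to 1425, 1 to 66 and 8 to 442.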
